A study of Mus musculus with 11 samples.

Results

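The genes described here encode the nuclear subunits of the oxidative phosphorylation machinery in mouse liver, together with 8 factors that assemble complex I. They were taken by symbol, as all genes starting with Nduf, Uqcr, Cox4, Cox5, Cox6, Cox7, Cox8 or Atp5 and the genes Sdha, Sdhb, Sdhc, Sdhd and Cyc1, and their probes were found through the transcript each probe was designed on. This gave 94 genes with 125 probes, out of 20144 genes that the array measures by 26581 of its 39429 probes. Of the 94 genes, 92 were bright enough to test, among 15970 genes tested in all. The assembly factors are not subunits and are kept apart below. The 13 subunits encoded by mitochondrial DNA could not be matched by name and were not analysed here.

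The study compared livers of db/db mice, which lack a working leptin receptor and become obese and diabetic, after treatment with an antibody or with vehicle. The treated group had 6 samples from mice given the monoclonal antibody 3c7.v44 at 5 mg/kg, which binds the glucagon receptor (anti-GCGR). The control group had 5 samples from db/db mice given phosphate-buffered saline (PBS), numbered 1, 3, 4, 5 and 6. All samples thus carry the db/db genotype, and no lean liver was set beside them. Each liver sample was labelled with Cy5 and hybridised on its own array against a pooled mouse reference RNA labelled with Cy3, so every level below is log2 of liver over reference for that gene's own probe, and levels of different genes are not compared. Nothing in the labels ties samples to separate mice, and p-values then measure only the spread between these samples.

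Oxidative phosphorylation passes electrons from NADH through complex I, or from succinate through complex II, to ubiquinone, then through complex III and cytochrome c to complex IV, which reduces oxygen. Complexes I, III and IV pump protons across the inner mitochondrial membrane, and complex V, the ATP synthase, lets them flow back and makes ATP. In hepatocytes this ATP pays for gluconeogenesis and urea synthesis, both of which glucagon stimulates.

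Few single genes of the machinery passed the test. With anti-GCGR, 3 of 92 genes rose, namely Cox7a1, Ndufa8 and Ndufab1, and 1 fell, Atp5c1. The test was limma's moderated test with Benjamini-Hochberg adjustment over all 15970 genes at a threshold of 0.05. These were 3.26% of the oxidative phosphorylation genes rising, where 8.98% of all genes rose, and 1.09% falling, where 5.66% of all genes fell. The other 88 genes did not pass. As a description, 67 of the 92 log2 fold changes (72.8%) lay below 0, against 46.3% of those of all genes. Their median was -0.07, against 0.01 for all genes, and they ran from -0.29 to 0.44. At an unadjusted p under 0.05, 5 were higher and 15 lower, where the shares over all genes were 17.6% higher and 12.8% lower. The groups did not overlap for 2 genes that were higher and for none that was lower, where 3.95% of all genes were higher and 2.69% lower without overlap. Fewer cells of a type and less RNA per cell cannot be told apart in such bulk samples.

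One array stood apart. Over the 3868 genes of all kinds called when anti-GCGR replicate 5 was left out, that array lay at a median of 19.4% of the way from the PBS mean to the mean of the other anti-GCGR arrays, and it was nearer to the PBS mean for 75.7% of them. The same figures for the other 5 anti-GCGR arrays, each over the genes called without it, were 90.2% to 124% of the way and 4.43% to 16.2% nearer to PBS. Among oxidative phosphorylation genes, replicate 5 was below the PBS mean for 14 of 92 genes. The array keeps its label here, and whether that label is right was not tested. Main calls are given with and without it. Leaving out an array because it lies near the PBS mean enlarges the differences between the groups by construction, so values without it describe the remaining arrays and are no independent support. Without it, 5 of the 92 genes rose (5.43%, against 14.4% of all genes) and 23 fell (25%, against 9.86% of all genes). All 4 genes called with every array were among these 28. The arrays lay on 3 slides that each held both groups, and with the slide as a block 3 genes rose (10.9% of all genes did) and 6 fell (6.58% of all genes did).

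**Figure D1:**
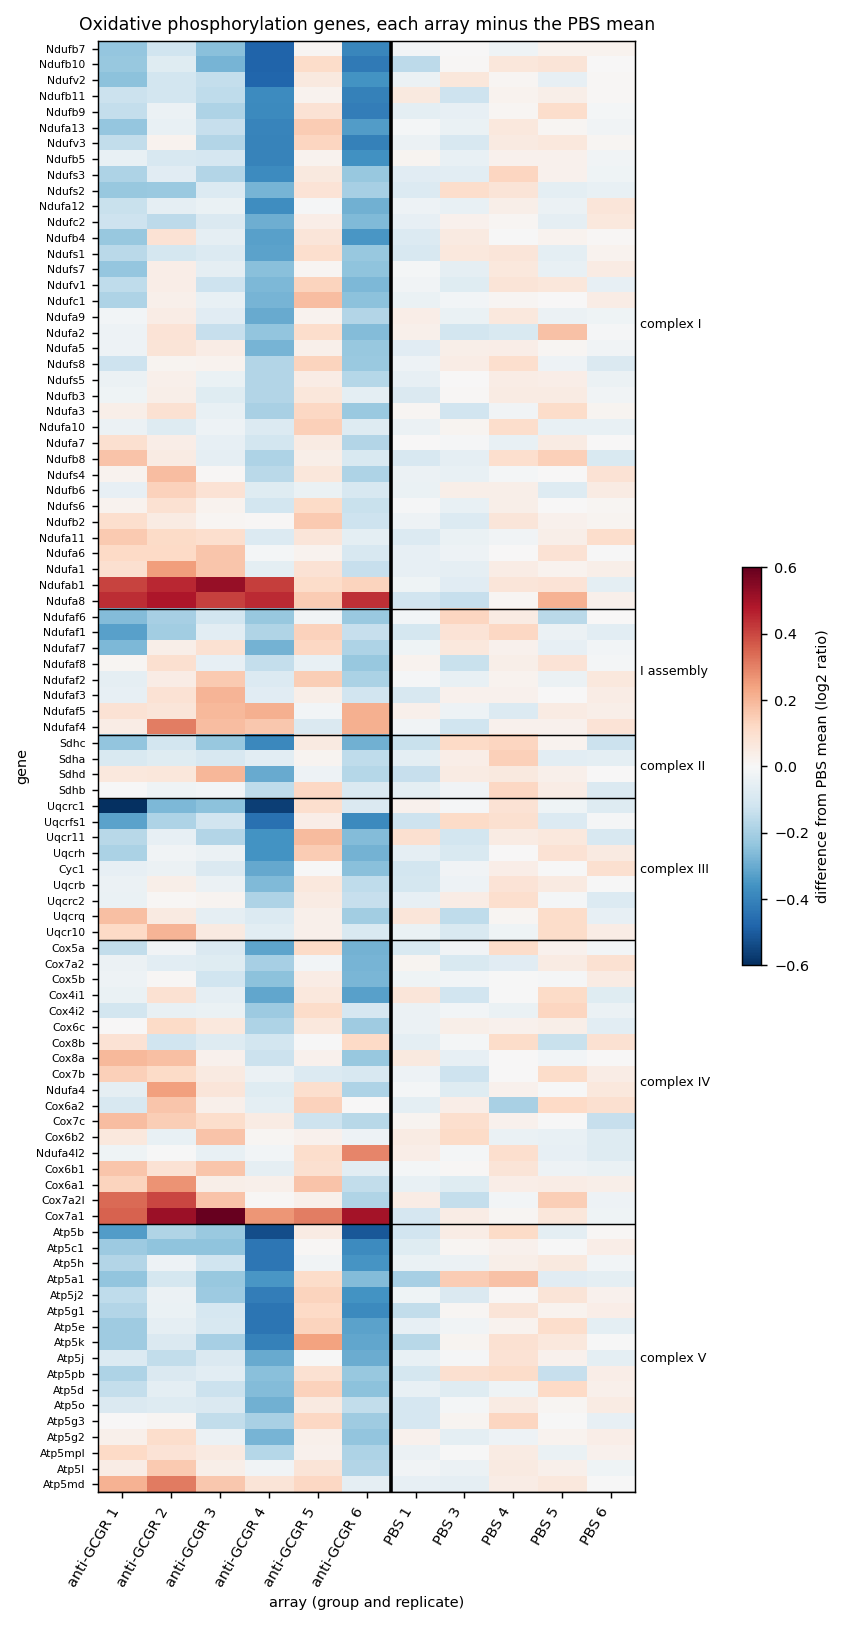
Each row is one of the 92 tested genes, grouped by complex and ordered by fold change, and each column one array, with anti-GCGR left of PBS. Colour gives the array's log2 ratio minus the PBS mean of that gene (red higher, blue lower, limits at 0.6 either way). Anti-GCGR replicates 4 and 6 were below the PBS mean for 81 and 84 genes, and replicate 5 for 14.

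The antibody arrays did not move together. The median over the 92 genes of the difference from the PBS mean was -0.05, 0.03, -0.05, -0.22, 0.07 and -0.21 on anti-GCGR arrays 1 to 6, against -0.04, -0.02, 0.04, 0.02 and -0.00056 on PBS arrays 1, 3, 4, 5 and 6. Replicates 4 and 6 were the low ones, replicates 1 and 3 lay just under the lowest PBS array, and replicates 2 and 5 lay among or above the PBS arrays. The number of genes below the PBS mean was 60, 41, 59, 81, 14 and 84 of 92 on anti-GCGR arrays 1 to 6. The genes also spread more between the antibody samples. The standard deviation was larger among anti-GCGR than among PBS arrays for 87 of 92 genes (94.6%), compared with 63.1% of all genes. Its median was 0.14 in anti-GCGR and 0.07 in PBS livers, and over all genes it was 0.12 in anti-GCGR and 0.10 in PBS livers. Probes of these genes were also brighter than most, with a median mean log2 brightness of 14.0 against 8.97 for all genes, though the tested probes of Cox8b, Cox6b2, Ndufa4l2 and Cox4i2 were dimmer than that. Within slides, the median difference between anti-GCGR and PBS arrays over the 92 genes was -0.13 on slide 1, with 71 genes below 0, and -0.10 on slide 3, with 75 below 0. On slide 2, which held anti-GCGR replicates 2 and 5 and a single PBS array, it was 0.02, with 35 below 0.

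**Figure D2:**
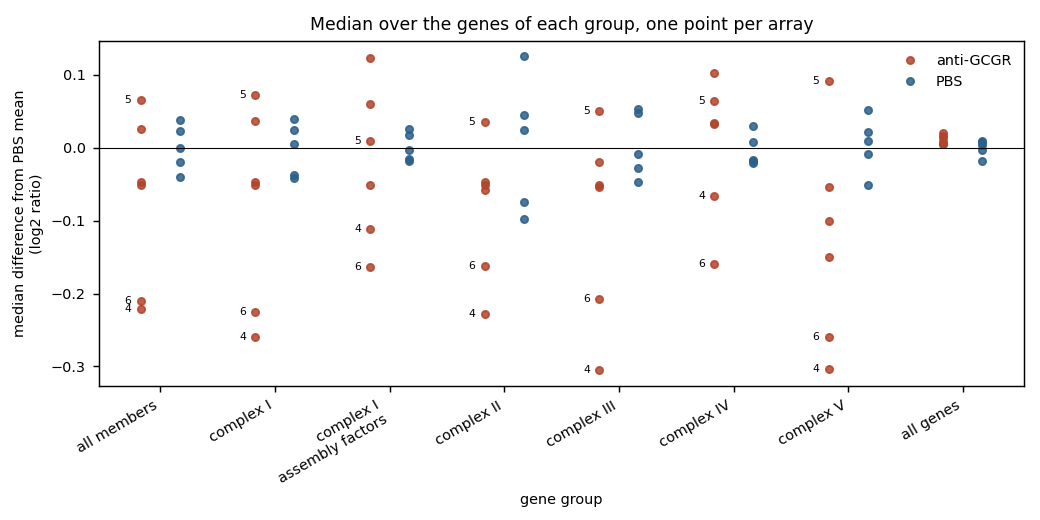
Each point is one array's median, over the genes of a group, of the log2 ratio minus the PBS mean, with anti-GCGR in red left of PBS in blue, and anti-GCGR replicates 4, 5 and 6 numbered. For complex V the anti-GCGR arrays ran from -0.30 to 0.09 and the PBS arrays from -0.05 to 0.05, while the medians of all genes stayed near 0 on every array.

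Short stretches of the promoters are shown first, since promoters of respiratory genes are known for sites of nuclear respiratory factor 1 (NRF1), a transcription factor of mitochondrial biogenesis. RefSeq promoter windows (build GRCm38.p6, 250 bases before to 50 after the gene start) were at hand for 76 of the 94 genes. The letters GCATGCGC, searched on both strands, stood in 12 of them (15.8%), against 3.05% of 27025 genes with a window, a set that includes non-coding genes and was not matched on base composition. Each stretch below is read 5′ to 3′ on the gene's strand with the match in capitals. In 7 of the 12 the reverse complement was also found, as part of a longer palindrome around the same bases. The matches in Ndufaf5 and Uqcrc1 begin after the gene start, and the other 10 before it.
Ndufa8 (chr2:36049330-36049355, minus strand): gctggagacGCATGCGCagatggtac
Ndufa6 (chr15:82354358-82354383, minus strand): cgcggtagaGCATGCGCattgcagag
Ndufa11 (chr17:56717695-56717720, plus strand): gcactgcgcGCATGCGCgcacgcctt
Ndufaf4 (chr4:24897963-24897988, plus strand): gatgtctgcGCATGCGCctgtgcgga
Ndufaf5 (chr2:140170655-140170680, plus strand): cccgttggcGCATGCGCctaatagaa
Sdhb (chr4:140961208-140961233, plus strand): gcccagtggGCATGCGCcctacgggc
Uqcrc1 (chr9:108936671-108936696, plus strand): ccgctctgcGCATGCGCagcgcggct
Uqcr11 (chr10:80406809-80406834, minus strand): cgccttcacGCATGCGCtatacgtct
Cox6a1 (chr5:115349102-115349127, minus strand): gaacggggcGCATGCGCgctctcgct
Atp5g2 (chr15:102671071-102671096, minus strand): tccggccgcGCATGCGCagagccttc
Atp5k (chr5:108434431-108434456, minus strand): cactgcggcGCATGCGCctttctggc
Atp5l (chr9:44920966-44920991, minus strand): accaataacGCATGCGCatttccccc

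The genes with these letters did not all lie on one side. Their log2 fold changes with anti-GCGR ran from -0.29 for Uqcrc1 to 0.40 for Ndufa8, the only one of the 12 that passed the test, with a median of 0.04, and the median of the 63 tested genes with a window and no match was -0.08. Letters of 3 other factors known from respiratory gene promoters were searched the same way. CCGGAAGT, of GABPA, stood in 5 of 76 windows (6.58%, against 4.31% of all genes), AAGATGGCG, of YY1, in 8 (10.5%, against 1.64%), and TCAAGGTCA, of the oestrogen-related receptors, in 2 (2.63%, against 0.466%). Genes with a match had a median log2 fold change of -0.14 for GABPA, against -0.06 without one. The same medians were -0.09 and -0.06 for YY1, and -0.05 and -0.06 for the oestrogen-related receptors. Whether fold changes differ with any of these motifs was not tested. Among the 4 called genes, Ndufa8 alone held one of these 4 motifs, in the last 8 bases before its start. The 250 bases before the start are printed for Ndufa8 and for Cox7a1, which had the largest rise and none of the 4 motifs.
Ndufa8 (chr2:36049339-36049588, minus strand): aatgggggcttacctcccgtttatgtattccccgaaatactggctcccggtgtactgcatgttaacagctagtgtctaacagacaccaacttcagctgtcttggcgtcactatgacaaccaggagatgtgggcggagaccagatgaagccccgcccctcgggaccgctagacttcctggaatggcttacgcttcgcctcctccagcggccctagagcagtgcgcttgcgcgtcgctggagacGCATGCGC
Cox7a1 (chr7:30183921-30184170, plus strand): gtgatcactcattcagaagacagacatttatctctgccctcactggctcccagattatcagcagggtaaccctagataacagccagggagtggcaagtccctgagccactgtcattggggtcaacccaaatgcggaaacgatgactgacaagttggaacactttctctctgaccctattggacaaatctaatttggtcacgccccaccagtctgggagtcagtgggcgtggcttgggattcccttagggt
A match is a description of these letters in these windows. It does not show that a factor binds there, and a window without one says nothing about the factor.

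Complex I, NADH dehydrogenase, was measured through 36 subunits, of which 2 rose with anti-GCGR and none fell. Both that rose are accessory subunits, listed outside the modules that take electrons from NADH and reduce ubiquinone. When probes were tested one by one, a dimmer probe of Ndufb5 did fall (-0.24, limma adjusted p = 0.0299). The brightest probe of Ndufb5, which stood for the gene, was at -0.16 in that fit and did not pass (adjusted p = 0.191). Ndufa8, an accessory subunit on the intermembrane-space side, had log2 ratios of 1.33, 1.38, 1.30, 1.34, 1.04 and 1.33 on anti-GCGR arrays 1 to 6, against 0.78, 0.75, 0.90, 1.10 and 0.92 on PBS arrays 1, 3, 4, 5 and 6. Every anti-GCGR array but replicate 5 lay above all PBS arrays, and replicate 5 lay under PBS replicate 5. The mean was 1.29 ± 0.12 (SD, n = 6) in anti-GCGR and 0.89 ± 0.14 (SD, n = 5) in PBS livers, which is a log2 fold change of 0.40 with SE 0.0756 (limma adjusted p = 0.00825), and the exact permutation test over all 462 splits of the arrays gave a two-sided p of 0.00649. Leaving out replicate 5 gave 0.45 (limma adjusted p = 0.000495).

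Ndufab1, the mitochondrial acyl carrier protein, which also serves mitochondrial fatty acid synthesis, had log2 ratios of 1.64, 1.69, 1.76, 1.65, 1.34 and 1.37 on anti-GCGR arrays 1 to 6, against 1.21, 1.16, 1.31, 1.31 and 1.18 on PBS arrays. Replicates 5 and 6 came close to the PBS arrays, yet the groups did not overlap. The log2 fold change was 0.34 with SE 0.0797 (adjusted p = 0.0167 in limma), the exact permutation p was 0.0108, and the log2 fold change was 0.39 without replicate 5 (limma adjusted p = 0.00229). With arrays centred on their median in place of loess it was 0.22 and the call was lost (adjusted p = 0.114). Within the 3 slides the difference between anti-GCGR and PBS arrays was 0.39, 0.20 and 0.39 for Ndufab1 and 0.49, 0.11 and 0.48 for Ndufa8, the smallest on slide 2 for both.

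The rest of complex I lay mostly on the other side of 0. Of the 36 fold changes, 29 were below 0, with a median of -0.08. That median was -0.17 with median centring and -0.12 with the scanner software's ratio, where the medians of all genes were -0.06 and -0.01. For complex I it was -0.01 in Cy5 alone, where 21 of 36 lay below 0, and -0.04 without anti-GCGR replicate 4 and -0.05 without replicate 6. The electron-entry module, where NADH hands over its electrons, had a median of -0.12 over 8 subunits. The quinone module, where ubiquinone is reduced, had -0.12 over 5 subunits, all 5 below 0, and the 23 membrane-arm and other subunits had -0.04. Ndufb7, a membrane-arm accessory subunit, had log2 ratios of 1.58, 1.69, 1.56, 1.33, 1.82 and 1.42 on anti-GCGR arrays 1 to 6, against 1.79, 1.81, 1.78, 1.83 and 1.83 on PBS arrays. Its PBS values lay close together, and all anti-GCGR arrays but replicate 5 lay below them. The log2 fold change of -0.24 (SE 0.0774) missed the threshold with a limma adjusted p of 0.0512, and without replicate 5 it was -0.30 (adjusted p = 0.00641). In that fit 10 of the 36 subunits fell (27.8%, against 9.86% of all genes) and Ndufa8 and Ndufab1 rose.

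The 8 assembly factors of complex I, which build the complex and leave it, were evenly split, with 4 fold changes below 0 and a median of -0.03. None passed the test. The smallest p-values were those of Ndufaf6 (log2 fold change -0.17, SE 0.0620, limma adjusted p = 0.0762), Ndufaf5, which modifies a quinone-module subunit (0.13, SE 0.0550, adjusted p = 0.138), and Ndufaf4 (0.14, SE 0.0690, adjusted p = 0.195). Without replicate 5, Ndufaf6 fell (-0.21, limma adjusted p = 0.0248) and Ndufaf5 and Ndufaf4 rose (0.16 and 0.18, adjusted p = 0.0451 and 0.0403). With all arrays, Ndufaf5 lay just below 0 with median centring and at -0.02 in Cy5 alone, and Ndufaf4 at 0.02 with median centring.

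Complex II, succinate dehydrogenase, also an enzyme of the citric acid cycle, had all 4 fold changes below 0, or 3 of 4 in Cy5 alone, and none past the threshold. Their median was -0.05, or -0.14 with median centring, where that of all genes was -0.06, and -0.02 in Cy5 alone. Sdhc, one of its membrane anchors, had log2 ratios of 1.12, 1.25, 1.13, 0.98, 1.42 and 1.08 on anti-GCGR arrays 1 to 6, against 1.23, 1.48, 1.49, 1.38 and 1.24 on PBS arrays. The groups overlapped, through anti-GCGR replicates 2 and 5. Its log2 fold change was -0.20 (SE 0.0811, limma adjusted p = 0.115), or -0.25 without replicate 5 (adjusted p = 0.0223). The flavoprotein Sdha was at -0.08, the iron-sulphur subunit Sdhb at -0.03 and the anchor Sdhd at -0.03, with limma adjusted p-values of 0.357, 0.804 and 0.854.

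Complex III, the cytochrome bc1 complex, had 8 of 9 fold changes below 0, with a median of -0.12, and none past the threshold. In Cy5 alone the median was -0.01, with 6 of 9 below 0, and without anti-GCGR replicate 4 it was -0.08. Uqcrc1, a core protein, had log2 ratios of 0.66, 1.07, 1.09, 0.77, 1.44 and 1.25 on anti-GCGR arrays 1 to 6, against 1.37, 1.33, 1.43, 1.31 and 1.26 on PBS arrays. Replicates 1 and 4 were far below every PBS array and replicate 5 was above them all, the widest spread among the genes plotted singly, with an SD of 0.29 in anti-GCGR and 0.06 in PBS livers. Its log2 fold change was -0.29 (SE 0.118, limma adjusted p = 0.114). Uqcrfs1, the Rieske iron-sulphur protein, had log2 ratios of 1.92, 2.06, 2.13, 1.80, 2.28 and 1.86 on anti-GCGR arrays, against 2.12, 2.36, 2.34, 2.16 and 2.24 on PBS arrays, with a log2 fold change of -0.24 with SE 0.0860 (limma adjusted p = 0.0834). Here too the groups overlapped, through replicates 3 and 5. Cyc1, the cytochrome c1 subunit, was at -0.12 (limma adjusted p = 0.231). Without replicate 5, Uqcrc1 (-0.37, limma adjusted p = 0.0176) and Uqcrfs1 (-0.29, adjusted p = 0.0137) fell. In that fit 3 of the 9 subunits fell, where 9.86% of all genes did.

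Complex IV, cytochrome c oxidase, was the only complex whose median lay above 0, at 0.02, with 11 of 18 tested fold changes above 0 and 7 below. That sign was not stable, since the median was -0.05 with arrays centred on their median in place of loess and -0.02 with the scanner software's ratio, while it was 0.06 in Cy5 alone, with 4 of 18 below 0. The median of all genes moved too, to -0.06 with median centring and -0.01 with the scanner software's ratio. The median of complex IV also lay just below 0 without PBS replicate 3, anti-GCGR replicate 1 or anti-GCGR replicate 2. Here 1 subunit rose with anti-GCGR and none fell. Several subunits of this complex exist as isoforms that replace each other between tissues, and the one that rose is such an isoform.

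Cox7a1, the heart and skeletal muscle form of subunit VIIa, had log2 ratios of -0.23, -0.08, 0.14, -0.33, -0.28 and -0.09 on anti-GCGR arrays 1 to 6, against -0.69, -0.55, -0.58, -0.52 and -0.62 on PBS arrays. All 6 anti-GCGR arrays lay above all 5 PBS arrays, replicate 5 included. The mean was -0.15 ± 0.17 (SD, n = 6) in anti-GCGR and -0.59 ± 0.07 (SD, n = 5) in PBS livers, which is a log2 fold change of 0.44 with SE 0.0782 (limma adjusted p = 0.00632). The two-sided exact permutation p was 0.00216, the smallest among the 4 called genes. The rise was 0.47 without replicate 5 (limma adjusted p = 0.00114), and 0.35, 0.34 and 0.61 within slides 1, 2 and 3. In the reference dye the same probe differed by -0.02 between the groups.

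Other muscle forms did not pass. Cox6a2, the muscle form of subunit VIa, was far under the reference on all arrays, at -3.59 ± 0.11 (SD, n = 6) in anti-GCGR and -3.62 ± 0.13 (SD, n = 5) in PBS livers, and its log2 fold change was 0.03 (95% interval -0.12 to 0.18). Cox8b, the muscle form of subunit VIII, was at 0.08 ± 0.10 in anti-GCGR and 0.09 ± 0.10 in PBS livers, a log2 fold change of -0.02 (95% interval -0.16 to 0.12). The scanner software's ratio gave it -0.74 (adjusted p = 0.147), so its value depends on the processing. Cox8b was the tested gene nearest to the brightness filter, well above background on 10 of 11 arrays, and the other 91 were on all 11. Cox7b2 and Cox8c, known as testis forms, were well above background on none of the arrays and were not tested. Of the striated muscle markers 0 of 5 tested passed, but Acta1 (0.33, limma adjusted p = 0.0983) and Tnni2 (0.17, adjusted p = 0.114) were higher at an unadjusted p under 0.05. The others tested lay near 0 on either side, Tnnt3 at 0.02, Actn3 at -0.02 and Myh7 at -0.06. The 5 had a mean log2 ratio over the list of -1.73 to -1.49 on anti-GCGR and -1.84 to -1.63 on PBS arrays, and Ckm, Myh4 and Mb were too dim to test. Brown fat also uses Cox7a1. Of its markers Cidea (log2 fold change 2.54, SE 0.708, limma adjusted p = 0.0315) and Elovl3 (0.60, SE 0.170, adjusted p = 0.0345) rose, 2 of 2 tested, where 8.98% of all genes rose. Ucp1, the defining gene of brown fat, was too dim to test. Cidea was at 4.06 ± 1.69 (SD) in anti-GCGR and 1.52 ± 0.89 in PBS livers, and the groups overlapped for both genes. Elovl3 was at 3.75 ± 0.29 against 3.16 ± 0.37, so both means lay above the reference in PBS livers too. Whether their RNA came from brown fat cells was not tested. Of 4 general fat cell markers Adig rose (0.81, limma adjusted p = 0.0190), and Adipoq was at -0.21 (adjusted p = 0.0974), Retn at 0.16 and Plin1 at 0.04, while Lep was too dim to test. The part of these in the rise of Cox7a1 was not tested.

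The forms that liver is known to use were closer to 0. Cox7a2, the liver form of subunit VIIa, had log2 ratios of 0.74, 0.71, 0.71, 0.58, 0.76 and 0.50 on anti-GCGR arrays, against 0.79, 0.68, 0.71, 0.83 and 0.87 on PBS arrays. These overlapped, with a log2 fold change of -0.11 with SE 0.0604 (limma adjusted p = 0.242). Cox6a1 was at 0.08, Cox8a at 0.01, Cox4i1 at -0.10, Cox6b1 at 0.07 and Cox7b at 0.02, and none of them passed. In Cy5 alone, however, Cox6a1 was at 0.19 and was called higher (limma adjusted p = 0.0282). Cox5b, which had the third smallest p of this complex, was at -0.10 (limma adjusted p = 0.303). Among the remaining isoforms, Cox4i2 was at -0.07, Cox6b2 at 0.03 and Cox7a2l, a factor of respiratory supercomplexes, at 0.13. Ndufa4, now counted as a subunit of complex IV, was at 0.02, and its paralogue Ndufa4l2, known as a hypoxia gene, at 0.05. None of these 5 passed.

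**Figure D3:**
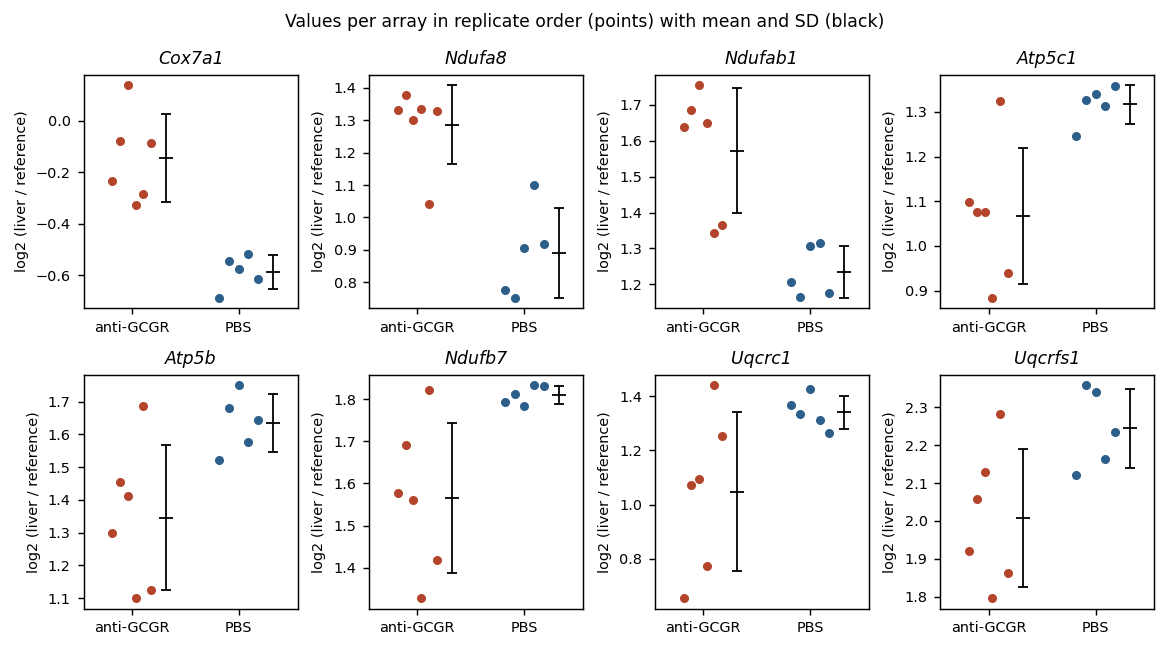
Each point is the log2 ratio of liver over reference on one array, in replicate order, with anti-GCGR in red left of PBS in blue and the mean and SD in black. Cox7a1, Ndufa8 and Ndufab1 rose and Atp5c1 fell, while Atp5b, Ndufb7, Uqcrc1 and Uqcrfs1 were lower on most anti-GCGR arrays and missed the threshold.

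Complex V, the ATP synthase, had the lowest median of the 5 complexes, at -0.15, with 15 of 17 fold changes below 0. In Cy5 alone it was -0.07, with 11 of 17 below 0. One subunit fell with anti-GCGR and none rose. Atp5c1, the gamma subunit that turns inside the catalytic head, had log2 ratios of 1.10, 1.08, 1.08, 0.88, 1.32 and 0.94 on anti-GCGR arrays 1 to 6, against 1.25, 1.33, 1.34, 1.31 and 1.36 on PBS arrays. Every anti-GCGR array but replicate 5 lay below all PBS arrays. The mean was 1.07 ± 0.15 (SD, n = 6) in anti-GCGR and 1.32 ± 0.04 (SD, n = 5) in PBS livers, which is a log2 fold change of -0.25 with SE 0.0703 (limma adjusted p = 0.0326), with a two-sided exact permutation p of 0.00866. The call was a narrow one. It held in 1 of the 11 fits that left out a single array, the one without anti-GCGR replicate 5 (-0.30, limma adjusted p = 0.00214), and a dimmer probe of the same gene gave -0.18 (adjusted p = 0.13 when probes were tested one by one). Its reference dye differed by -0.08 between the groups, and within slides the fall was -0.30, -0.11 and -0.33.

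All 5 subunits of the F1 head, the part that makes ATP, lay below 0, with a median of -0.18. Atp5b, the catalytic beta subunit, had log2 ratios of 1.30, 1.45, 1.41, 1.10, 1.69 and 1.12 on anti-GCGR arrays 1 to 6, against 1.52, 1.68, 1.75, 1.58 and 1.64 on PBS arrays. Again only replicate 5 reached the PBS range. The log2 fold change of -0.29 (SE 0.0961) had a limma adjusted p of 0.0609, and without replicate 5 it was -0.36 (adjusted p = 0.00575). Atp5h, of the peripheral stalk, was at -0.19 (SE 0.0763, limma adjusted p = 0.114), and at -0.22 without replicate 5 (adjusted p = 0.0465). The genes Atp5g1, Atp5g2 and Atp5g3, which encode the same mature c subunit of the rotor, were at -0.17, -0.06 and -0.07 and did not pass. In Cy5 alone all 3 lay above 0, at 0.06, 0.07 and 0.03, and the reference dye of Atp5g1 differed by 0.10 between the groups. Without replicate 5, 8 of the 17 subunits of complex V fell and none rose, against 10 of 36 in complex I, 1 of 4 in complex II, 3 of 9 in complex III and 0 of 18 in complex IV, where 9.86% of all genes fell. Whether the complexes differ was not tested.

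**Figure D4:**
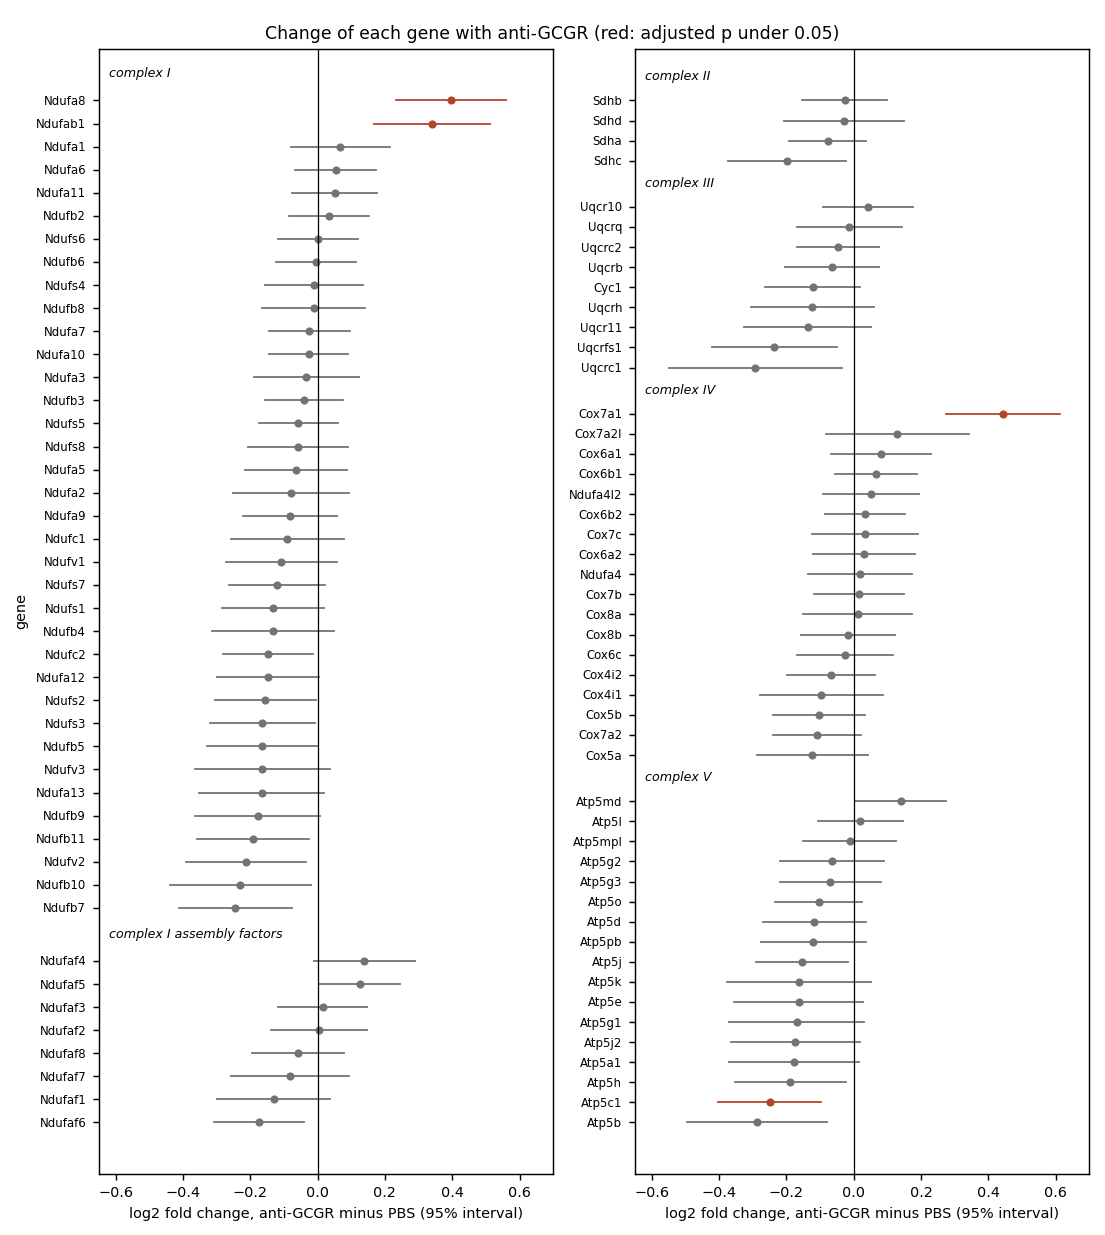
Each point is the log2 fold change of one gene, anti-GCGR minus PBS, over all 11 arrays, with its 95% interval, by complex. The 4 genes in red passed the test, and most intervals of complexes I, II, III and V lie mainly below 0.

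Of the 92 genes, 86 were above the pooled reference on every array, 1, Cox6a2, was below it on every array, and 5 lay on both sides. Among 23 genes with more than 1 kept probe, the probes' fold changes had 1 sign for 18 and both signs for 5, with a median range between probes of 0.05. RefSeq lists 22 further genes with such symbols that no probe was matched to, 16 of them named as pseudogenes, and cross-hybridisation of their transcripts was not tested. In Cy5 alone, normalised between arrays without the reference, the median of the 92 genes was -0.01 and 51 of 92 lay below 0, against 0.00199 for all genes. The reference dye, which holds the same RNA on all arrays, differed by a median of 0.01 over the 92 genes and 0.01 over all genes. Of the 4 called genes, all 4 were called in Cy5 alone too.

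**Figure D5:**
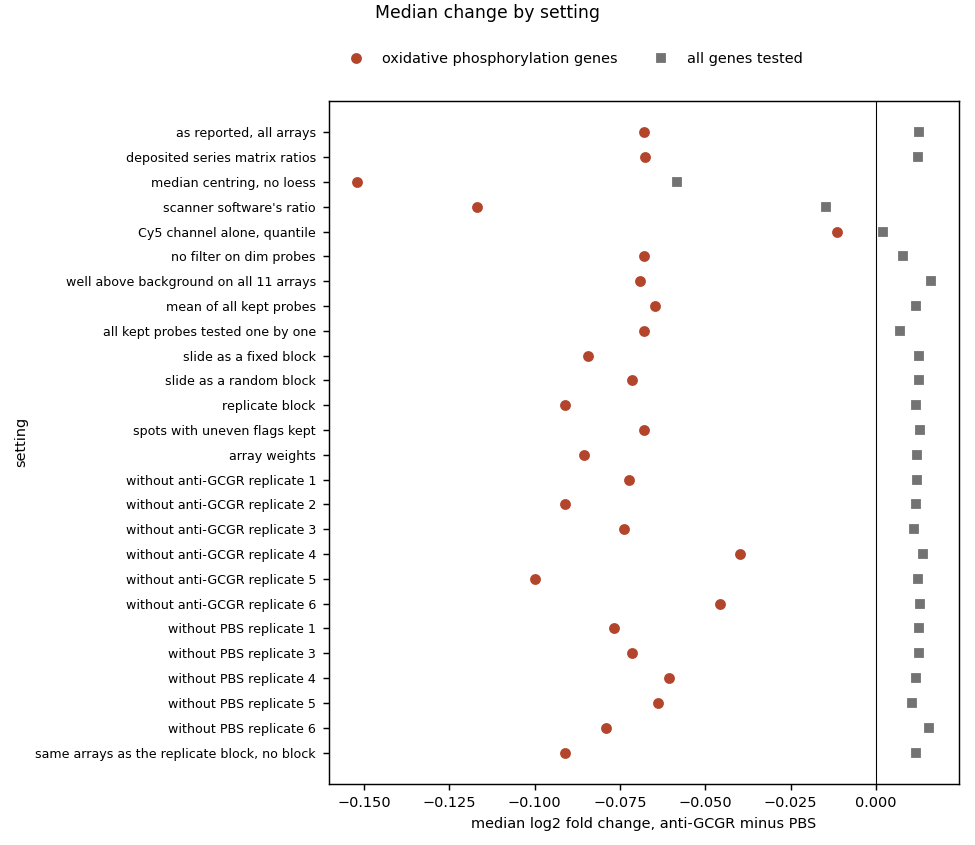
Medians of the log2 fold change, anti-GCGR minus PBS, over the oxidative phosphorylation genes (circles) and over all genes tested (squares), one row per way of processing or per array left out. The circles lie between -0.15 and -0.01 and to the left of the square in each row.

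Of 17 regulators of mitochondrial genes tested, 3 fell with anti-GCGR and none rose, where 5.66% of all genes fell and 8.98% rose. Ppargc1a, a coactivator that glucagon is known to induce in liver and that drives respiratory genes, had log2 ratios of 0.97, 1.20, 1.32, 1.23, 1.50 and 1.41 on anti-GCGR arrays 1 to 6, against 2.07, 2.29, 2.09, 1.69 and 2.21 on PBS arrays. All anti-GCGR arrays lay below all PBS arrays, replicate 5 included, with a change of -0.80 on the log2 scale (limma adjusted p = 0.00412). Its relative Ppargc1b was at -0.51 (adjusted p = 0.0359). The median of the 17 was -0.06.

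Genes that feed or build the chain gave mixed calls. Among 18 electron carriers and entry points 2 rose and 4 fell, where 8.98% of all genes rose and 5.66% fell. Gpd2, which passes electrons of glycerol 3-phosphate to ubiquinone, rose by 0.83 (limma adjusted p = 0.0161). Its log2 ratios were 1.02, 0.72, 0.74, 0.89, -0.02 and 0.81 on anti-GCGR arrays, against -0.26, -0.40, -0.01, 0.47 and -0.50 on PBS arrays, and only replicate 5 overlapped with PBS. Coq4, of ubiquinone synthesis, rose by 0.19, and Prodh, proline dehydrogenase, and Pdss2, which makes the ubiquinone tail, were at -0.43 and -0.38, both past the threshold (adjusted p = 0.0418 and 0.0482). Of 17 genes of the citric acid cycle and pyruvate dehydrogenase 3 rose and 1 fell, beside the same shares of all genes. The pyruvate dehydrogenase subunits Pdhb (0.50, limma adjusted p = 0.0122) and Dlat (0.37, adjusted p = 0.0470) rose. Fh1, fumarate hydratase, fell, at -0.67 (adjusted p = 0.0154), with 2.04 on anti-GCGR replicate 5, inside the PBS range of 1.87 to 2.29, and 1.04 to 1.45 on the other 5 anti-GCGR arrays.

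Of 35 assembly factors outside the Nduf symbols 1 rose and 2 fell, where 8.98% of all genes rose and 5.66% fell. Cox19, a copper-handling factor of complex IV, rose by 0.40 (limma adjusted p = 0.00855), and its groups did not overlap. Uqcc3, a factor of complex III, was at -0.47 (adjusted p = 0.0140) and Tmem70, of complex V, at -0.28 (adjusted p = 0.0278). The uncoupling protein relatives Ucp2 and Ucp3 rose by 0.57 and 0.56 (adjusted p = 0.00511 and 0.00545), 2 of 8 carriers tested, both without overlap. The mitochondrial ribosome, which translates the subunits encoded in the organelle, had 6 rises and 1 fall among 77 genes and a median of -0.00657. Over all genes the shares were 8.98% rising and 5.66% falling. Mrps28 (0.31) and Mrpl17 (0.27) had the largest rises and Mrps35 (-0.21) was the one that fell. When single arrays were left out in turn, several of these calls held in few of the 11 fits, namely Dlat, Coq4 and Mrps35 in 2, Prodh, Pdss2 and Tmem70 in 3 and Ppargc1b in 4, while Ppargc1a, Ucp2, Ucp3, Cox19, Uqcc3, Gpd2, Pdhb and Fh1 held in all 11.

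Of the hepatocyte markers 0 of 6 passed the test, and their mean log2 ratio was 6.09 to 6.34 on anti-GCGR and 6.12 to 6.37 on PBS arrays. That mean joins changes of both signs. At an unadjusted p under 0.05 Apoa1 was higher (0.33), and Cps1 (-0.35), Alb (-0.13) and Cyp2e1 (-0.21) were lower. The median log2 fold change of the 6 was -0.105. Markers of other liver cells leaned upward, with 2 of 4 endothelial markers, 2 of 5 stellate cell markers, 1 of 4 macrophage markers and 2 of 3 red cell markers rising and none falling, and 0 of 4 cholangiocyte markers past the threshold. Over all genes 8.98% rose and 5.66% fell. Endothelial markers averaged 2.44 to 2.68 on anti-GCGR and 2.25 to 2.42 on PBS arrays, and stellate cell markers -0.45 to 0.19 on anti-GCGR and -0.72 to -0.44 on PBS arrays. Their part in the values above was not tested.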

How the data were processed

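Sample titles gave the groups and replicate numbers. The members and lists were chosen with earlier results of these data known. The deposited scanner files (Agilent Feature Extraction, version 11.5.1.1 per the file headers and version 11 per the submitters' processing notes) hold median spot and background intensity in both dyes, unlogged and uncorrected, and spot flags. Their log10 ratio, Cy5 over Cy3, was made by the scanner software per the file headers. A table of log2 ratios deposited by the authors served as an alternative, and how they made it is not given in the sources used. Set against the scanner files it ran as Cy5 over Cy3, a median of 0.00329 from the values computed here, which were not centred per gene. Its column medians were -0.00277 to 0.00809.

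In limma 3.58.1 (R 4.3.3), local background was corrected by normexp (offset 50), arrays were normalised by loess with control spots at weight 0, uneven spots were left out and probes averaged. Median Cy5 signals were 85 to 110 against a background of 26 to 27, no spot was saturated, and the number of arrays limits the precision. Probes were named through RefSeq accessions (GRCm38.p6; the array design is on mm9). Probes were kept if well above background in the liver dye on 5 or more of 11 arrays, and the brightest kept probe stood for its gene. Groups were compared with lmFit and eBayes, two-sided, adjusted over 15970 genes. The procedure was tested on simulated data. Samples of both groups with the same replicate number lay on the same slide. The main fit did not pair them by number, and whether the numbers pair mice is not known.

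Genes were named by a rule: those past the threshold, the 3 smallest p-values per complex, all of complex II, tissue isoforms, genes at the brightness filter, and in each other list Ppargc1a or up to 2 rises and 2 falls.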

Additional observations from a re-analysis of the deposited data

Results flagged for a closer look

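Among 70 groups of 5 or 6 arrays looked at, 4 held a value far from the others of its group, and chance alone gives about 1 in 20. Ndufa8 stood at a log2 ratio of 1.04 on anti-GCGR replicate 5, while the other anti-GCGR arrays lay between 1.30 and 1.38. Sdhd stood at 1.29 on PBS replicate 1, where the other PBS arrays lay between 1.44 and 1.49. Cox4i2 stood at 0.50 on PBS replicate 5, above 0.33 to 0.36 on the other PBS arrays. Atp5g1 stood at 1.79 on PBS replicate 1, below 1.95 to 2.02 on the other PBS arrays.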

How the results depend on the processing

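Cox7a1 passed the threshold under all 25 alternatives run, Ndufa8 under 24 (not with the replicate block, adjusted p = 0.0533), Ndufab1 under 23 (not with median centring or the replicate block, 0.114 and 0.0605) and Atp5c1 under 12. The number of oxidative phosphorylation genes called, 4 with every array, was 12 with median centring, 8 with the scanner software's ratio, 8 in Cy5 alone, 9 with slide as a fixed block and 16 with array weights. It ran from 3 to 28 when arrays were left out in turn, the 28 being without anti-GCGR replicate 5 and 3 or 4 in the other 10 fits. Their median stayed below 0 in all of these, from -0.1 to -0.04 when arrays were left out. The share of rises among calls over all genes was 61.3%, but 21.3% with median centring, where the median of all genes was -0.06, 45.2% by the scanner software and 51.3% in Cy5 alone. With a replicate block, on the numbers both groups share, 1 gene was called, Cox7a1, against 3 on the same arrays without the block, a comparison chosen after seeing the data. In a check of pairing, same-numbered samples correlated at -0.125 to 0.141, and 1 of the 5 numbers was best matched by its own. The log2 ratios themselves correlated at 0.971 to 0.993 between any 2 arrays, so that check was not on them as they stand. With so few numbers it cannot show that samples were unpaired.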
